A study of Mus musculus with 10 samples.

Results

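The genes described here are Foxp3, the transcription factor that defines regulatory T (Treg) cells, and 8 other transcription factors that act in T cell lineages: Gata3, Tbx21, Eomes, Rora, Bcl6, Runx1, Runx3 and Zbtb7b. They were found by gene name in the array annotation, and each of the 9 genes was represented by a single placed transcript probe set among 65956 tested. Expression was measured in T cells flow-sorted from the lymph nodes of C57BL/6 female mice aged 6 to 8 weeks, 50000 cells per array, on Affymetrix Mouse Transcriptome Arrays. The groups were Treg cells of Il2ramut/mut mice (3 arrays), Treg cells of wild type (WT) mice (3 arrays), conventional T (Tconv) cells of Il2ramut/mut mice (2 arrays) and Tconv cells of WT mice (2 arrays). All animals carried the Foxp3-RFP reporter on both alleles. Treg cells were sorted as positive for its red fluorescent protein (RFP) and Tconv cells as negative. According to the methods of the study, Tconv cells were further gated as naive cells, high in CD62L, low in CD44 and without CD25, so that in these arrays what belongs to the Treg lineage and what belongs to the naive state of the Tconv cells cannot be told apart. The Il2ramut/mut line carries a point mutation in the gene of CD25, the alpha chain of the IL-2 receptor, which lowers CD25 at the cell surface and the response to IL-2. The series asks how that weaker response alters expression in Treg and Tconv cells. The arrays of a group were taken as separate mice, as the design text implies. Each p-value of the main tests rests on the spread between the few arrays within all 4 groups, moderated by that of all probe sets.

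Foxp3 is a forkhead factor that binds DNA together with partners such as the RUNX proteins, and its sustained expression depends in part on IL-2 signals that reach the nucleus through STAT5. T-bet (from Tbx21) directs Th1 cells, GATA3 Th2 cells, ROR alpha (from Rora) supports Th17 cells beside ROR gamma t, and BCL6 directs follicular helper T (Tfh) cells. Treg cells can also express several of these factors at lower levels than the helper cells they control. ThPOK (from Zbtb7b) and RUNX3 oppose each other in the choice between the CD4 and CD8 lineages in the thymus, and Eomes acts beside T-bet, mainly in cytotoxic lymphocytes.

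All 9 genes had promoter windows in a RefSeq table (build GRCm38.p6), 14 windows in all, each covering 250 bases before to 50 bases after an annotated start. Windows of 4 genes are shown: Foxp3, because its signal separated the sorted populations, Gata3, because it passed the test between genotypes, and Runx1 and Runx3, because they share a motif. They are written 5′ to 3′ along the strand of the gene, with capitals for matches to the motifs searched. Foxp3 lies on chromosome X (plus strand), and the window of its downstream start covers chrX:7580233-7580532. Gata3 lies on chromosome 2 (minus strand, chr2:9878551-9878850). The upstream starts of Runx1 (minus strand, chr16:92826025-92826324) and Runx3 (plus strand, chr4:135120395-135120694) are shown.
Foxp3: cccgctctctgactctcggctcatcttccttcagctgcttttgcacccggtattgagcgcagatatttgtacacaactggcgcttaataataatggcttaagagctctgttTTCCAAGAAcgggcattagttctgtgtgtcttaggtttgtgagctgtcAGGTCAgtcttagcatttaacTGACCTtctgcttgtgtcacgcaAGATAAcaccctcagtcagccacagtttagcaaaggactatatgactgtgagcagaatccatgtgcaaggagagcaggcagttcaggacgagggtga
Gata3: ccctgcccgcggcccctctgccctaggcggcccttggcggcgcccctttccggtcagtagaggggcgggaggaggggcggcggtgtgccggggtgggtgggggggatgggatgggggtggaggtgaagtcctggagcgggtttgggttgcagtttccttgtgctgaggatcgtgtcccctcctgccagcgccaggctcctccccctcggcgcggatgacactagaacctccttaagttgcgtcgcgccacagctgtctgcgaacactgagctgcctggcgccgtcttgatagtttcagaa
Runx1: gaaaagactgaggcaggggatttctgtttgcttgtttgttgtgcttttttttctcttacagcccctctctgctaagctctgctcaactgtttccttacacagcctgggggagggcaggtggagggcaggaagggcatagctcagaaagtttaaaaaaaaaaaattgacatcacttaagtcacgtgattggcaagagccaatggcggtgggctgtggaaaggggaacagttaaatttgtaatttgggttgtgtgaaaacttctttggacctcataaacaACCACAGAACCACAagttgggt
Runx3: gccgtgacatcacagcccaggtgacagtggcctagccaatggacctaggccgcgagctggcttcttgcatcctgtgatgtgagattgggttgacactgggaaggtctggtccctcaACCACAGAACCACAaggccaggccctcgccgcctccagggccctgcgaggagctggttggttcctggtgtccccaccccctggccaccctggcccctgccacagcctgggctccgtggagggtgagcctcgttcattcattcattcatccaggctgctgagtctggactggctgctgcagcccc

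The motifs searched, on both strands, were a RUNX motif (TGTGGT, found in 16.7% of 32544 RefSeq windows of the same length), a GATA motif (AGATAA, 11.2%), a T-box motif (AGGTGT, 13.8%), a ROR motif (AGGTCA, 16.2%) and a spaced palindrome that STAT proteins and BCL6 can both bind (TTCNNNGAA, 8.33%). The Foxp3 window held a match to the STAT or BCL6 motif at position -139 from the start, ROR motifs at -91 and -70 and a GATA motif at -47, while the window of its upstream start held none. The windows of Runx1 and Runx3 each held a pair of RUNX motifs, at 29 and 37 after the start of Runx1 and at -134 and -126 before the start of Runx3. In both genes the pair reads ACCACAGAACCACA. The pattern ACCACANNACCACA was chosen after the pair was seen and is itself made of RUNX matches, with a gap between them. A search found it in 7 windows of 7 genes (0.0215% of windows). Of the other members, Bcl6 had 1 STAT or BCL6 match at its upstream start and 3 at its downstream start, Zbtb7b had 1 RUNX match, and the windows of Gata3, Tbx21, Eomes and Rora held no match to these letters. A match is a description of the sequence and says nothing of binding in these cells.

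The median log2 signal of an array was between 4.97 and 5.13. Between 40.3% and 51.3% of its transcript probe sets exceeded its background level, which is the 95th percentile of 23 control probe sets without a mouse target and was between 4.98 and 5.54. Markers fitted the labelled cells. The mean log2 signal of 8 Treg markers, which include Il2ra, Ikzf2 and Ctla4, was 13.80 to 13.82 in Il2ramut/mut Treg, 13.59 to 13.71 in WT Treg, 7.14 to 7.29 in Il2ramut/mut Tconv and 7.18 to 7.22 in WT Tconv arrays. Il2ra encodes CD25, which Tconv cells were gated to lack, so its difference between Treg and Tconv cells was fixed in part by the sort. The Treg marker Lrrc32 was at background on all 4 Tconv arrays. The B cell genes Cd79a, Ms4a1, Pax5 and Ebf1, the myeloid genes Csf1r, Adgre1 and Fcer1g, the NK cell genes Ncr1, Klre1 and Klrk1, and Cd8a were at background on all 10 arrays. Other genes of these lists were not. By group, 3 to 5 of 9 myeloid and 1 to 2 of 7 B cell markers lay above background on every array of the group. So did 0 to 1 of 8 NK and innate lymphoid and 1 of 2 CD8 T cell markers. Although Cd8a was at background, the mean log2 signal of the 2 CD8 T cell markers was between 6.61 and 7.58 on every array. The B cell markers Cd79b and Cd22, named after their values were seen, were called higher in Treg than in Tconv cells of both genotypes (2 of 7). The part of these genes in the results below was not tested. In bulk samples such as these, fewer cells of a type and less RNA per cell cannot be told apart. Levels are compared within a probe set only, because probes differ in response.

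**Figure D1:**
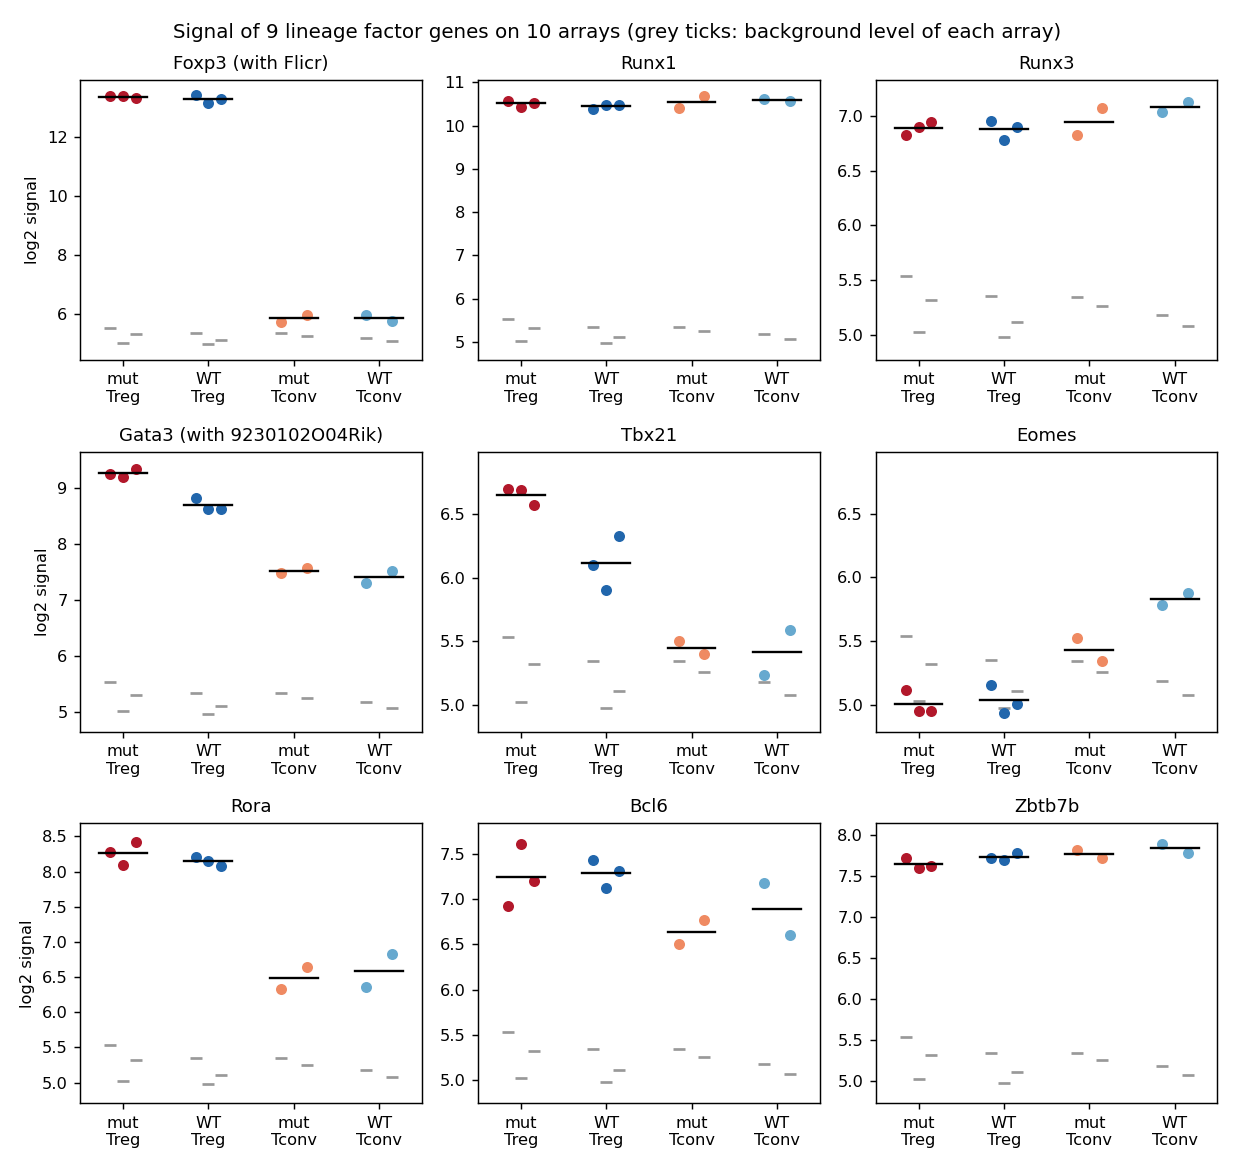
Log2 signal of each of the 9 genes (vertical axes, each with its own range) on the 10 arrays. Points are arrays, black lines are group means, and grey ticks are the background level of the array. Foxp3, Gata3, Rora and Tbx21 lie higher on all 6 Treg arrays than on all 4 Tconv arrays, Eomes lies at background on all 6 Treg arrays, and Gata3 and Tbx21 lie higher on all 3 Il2ramut/mut Treg arrays than on all 3 WT Treg arrays.

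Between Il2ramut/mut and WT Treg cells, 1 of the 9 factors passed the test: Gata3 was higher in Il2ramut/mut Treg cells, by 0.57 ± 0.094 on the log2 scale (SE, n = 3 against 3) or 1.48-fold. Foxp3 itself differed by 0.094 with an interval that spans 0. Tbx21 was 1.45-fold higher on average without passing the adjustment, and the other 6 factors differed by 0.11 or less in size. Across all probe sets limma called 0.373%, of which Il2ramut/mut Treg cells were higher for 0.171% and lower for 0.202% (adjusted p under 0.05, Benjamini-Hochberg over 65956 probe sets). That share fell whichever Treg array was left out, to between 38 and 166 probe sets, against 246 with all of them. Fewer arrays also mean fewer degrees of freedom, so the fall does not show that the calls rest on a particular array. At an unadjusted p under 0.05 there were 2 of the 9 factors, against 9.88% of all probe sets. The median difference of the 9 factors was 0.068, against -0.0020 over all probe sets.

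**Figure D2:**
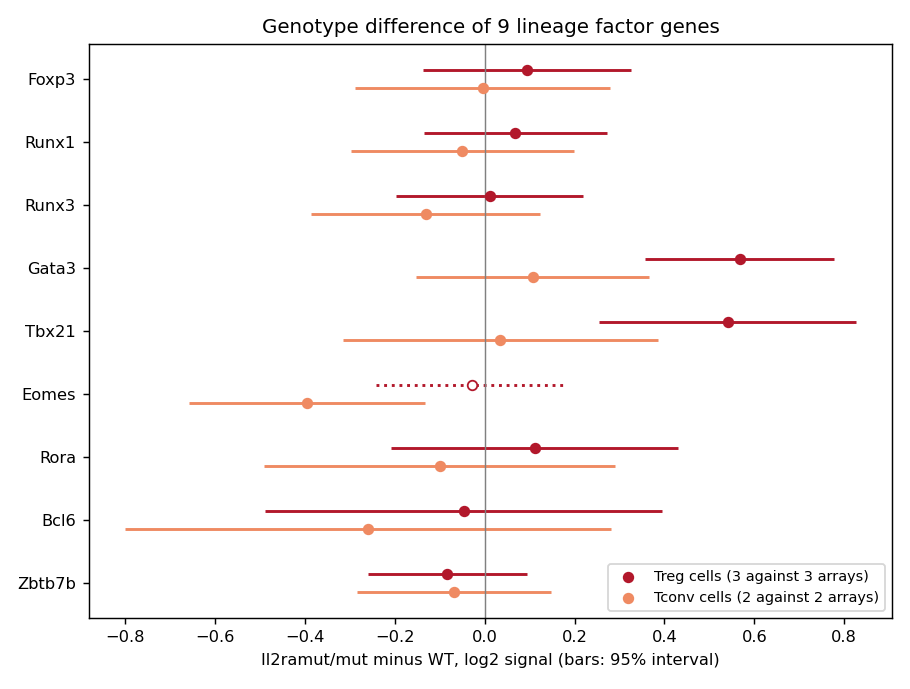
Difference in log2 signal between Il2ramut/mut and WT cells (horizontal axis) for each of the 9 genes, in Treg cells (dark red) and Tconv cells (light red). Bars are 95% intervals of the limma fit over all 10 arrays, and open points with dotted bars mark a group at background. Gata3 and Tbx21 in Treg cells and Eomes in Tconv cells are the members whose intervals leave out 0, and Gata3 in Treg cells is the 1 called after adjustment.

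The Foxp3 probe set (TC0X00000058.mm.1) lists Foxp3 together with a pair of older names that RefSeq gives to Flicr, a noncoding RNA that overlaps the start of Foxp3, so the transcripts cannot be told apart here. Foxp3 read 13.37, 13.39 and 13.32 on the Il2ramut/mut Treg arrays, against 13.40, 13.13 and 13.26 on the WT Treg arrays. The ranges overlapped, and the highest array of all was a WT one. The difference was 0.094 ± 0.10 (95% interval -0.137 to 0.325, adjusted p = 0.838). Among the sorted cells, a fall by more than 0.137 on the log2 scale lies outside the interval. Both groups were sorted as positive for the reporter of this gene, so a loss of Foxp3 below that gate was not tested. The difference was 0.21 with quantile normalization (adjusted p = 0.613) and 0.025 to 0.16 with 1 Treg array left out, lowest without WT Treg replicate 2 and highest without WT Treg replicate 1, and was not called in any of these. On Tconv arrays Foxp3 read 5.74 and 5.98 in Il2ramut/mut and 5.96 and 5.78 in WT mice, a little above background on every array (difference -0.0049 ± 0.13, 95% interval -0.288 to 0.278, adjusted p = 0.999). Because the sort used the reporter of this gene, its difference between Treg and Tconv cells was fixed by the design and is given without a test. It was 7.50 on the log2 scale in Il2ramut/mut mice (180-fold) and 7.40 in WT mice (168-fold).

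Runx1 and Runx3 encode DNA-binding partners of Foxp3 that share the subunit CBF beta. Runx1 (TC1600002097.mm.1) read 10.57, 10.43 and 10.53 in Il2ramut/mut Treg, 10.37, 10.48 and 10.47 in WT Treg, 10.41 and 10.67 in Il2ramut/mut Tconv, and 10.61 and 10.57 in WT Tconv cells. All 10 arrays lay within 10.37 to 10.67, far above background. Runx3 (TC0400001651.mm.1) read 6.82, 6.90 and 6.95 in Il2ramut/mut Treg, 6.95, 6.78 and 6.90 in WT Treg, 6.82 and 7.07 in Il2ramut/mut Tconv, and 7.03 and 7.12 in WT Tconv cells. The genotype difference in Treg cells was 0.068 (95% interval -0.135 to 0.271) for Runx1 and 0.011 (-0.197 to 0.219) for Runx3. Treg minus Tconv was -0.032 (-0.259 to 0.194) for Runx1 and -0.057 (-0.290 to 0.175) for Runx3 in Il2ramut/mut mice, and -0.15 (-0.377 to 0.076) and -0.20 (-0.432 to 0.033) in WT mice. In WT mice the Treg and Tconv arrays of both genes did not overlap, with the Treg arrays lower, but neither gene passed the adjustment (adjusted p = 0.459 for Runx1 and 0.327 for Runx3). The genes whose windows share the paired motif shown above thus had no called difference in any of the 5 comparisons.

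The Gata3 probe set (TC0200002935.mm.1) also lists 9230102O04Rik, a noncoding RNA of the same locus that cannot be told apart from Gata3 here. It read 9.24, 9.20 and 9.33 on the Il2ramut/mut Treg arrays, against 8.82, 8.63 and 8.63 on the WT Treg arrays. The lowest Il2ramut/mut array was above the highest WT array. The means were 9.26 ± 0.066 in Il2ramut/mut and 8.69 ± 0.11 in WT Treg cells (SD, n = 3 each), and limma called the difference of 0.57 ± 0.094 (95% interval 0.356 to 0.778, adjusted p = 0.0457). The call was close to its threshold: whichever of the 6 Treg arrays was left out, the difference stayed between 0.53 and 0.63, and the adjusted p rose to between 0.0596 and 0.176. On Tconv arrays Gata3 read 7.48 and 7.57 in Il2ramut/mut and 7.31 and 7.53 in WT mice, which overlap (difference 0.11 ± 0.12, adjusted p = 0.912). The difference of the genotype effects between Treg and Tconv cells was 0.46 ± 0.15 (adjusted p = 0.593), so that an effect particular to Treg cells was not shown.

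Tbx21 (TC1100003636.mm.1) had the second largest genotype difference among the factors. It read 6.70, 6.69 and 6.57 on the Il2ramut/mut Treg arrays, against 6.10, 5.91 and 6.33 on the WT Treg arrays. These groups did not overlap, and the WT arrays spread more widely (SD 0.21, against 0.070 in Il2ramut/mut Treg cells, n = 3 each). The difference was 0.54 ± 0.13 (95% interval 0.255 to 0.826, adjusted p = 0.159), so it was not called. On Tconv arrays Tbx21 was near background, at 5.50 and 5.40 in Il2ramut/mut and 5.24 and 5.59 in WT mice (difference 0.035 ± 0.16, adjusted p = 0.987). The interaction was 0.51 ± 0.20 (adjusted p = 0.722).

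The genotype difference of Gata3 and Tbx21 in Treg cells stood beside a lower level of naive T cell markers in the same arrays. The mean log2 signal of 6 naive markers, all above background, was 10.65 to 10.93 in Il2ramut/mut Treg and 11.20 to 11.33 in WT Treg arrays, against 13.98 to 14.19 in Il2ramut/mut Tconv and 13.93 in both WT Tconv arrays. The median difference of the 6 markers between the Treg groups was -0.57. By limma 5 of them had an unadjusted p under 0.05, and 1 had a difference above 0. Of these markers 1 passed the test between the Treg groups, Igfbp4, an insulin-like growth factor binding protein named here after its value was seen. Its mean was 7.70 in Il2ramut/mut and 8.82 in WT Treg cells (difference -1.11 ± 0.15, adjusted p = 0.0157). NK and innate lymphoid markers lay at background for 6 of 8 genes in Il2ramut/mut Treg and 7 of 8 in WT Treg cells, with mean log2 signals of 4.91 to 5.01 and 4.76 to 4.87. The part of cell makeup in the difference of Gata3 and Tbx21 was not tested.

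Rora (TC0900000892.mm.1) read 8.27, 8.09 and 8.42 in Il2ramut/mut Treg and 8.21, 8.16 and 8.08 in WT Treg cells, which overlap (difference 0.11 ± 0.14, 95% interval -0.208 to 0.430, adjusted p = 0.866). Bcl6 (TC1600001400.mm.1) read 6.92, 7.60 and 7.19 in Il2ramut/mut Treg and 7.43, 7.11 and 7.31 in WT Treg cells. It was the most variable of the factors, with an SD of 0.34 among the Il2ramut/mut Treg arrays (n = 3) (difference -0.046 ± 0.20, 95% interval -0.488 to 0.395, adjusted p = 0.970). Zbtb7b (TC0300002350.mm.1) read 7.72, 7.60 and 7.63 in Il2ramut/mut Treg and 7.72, 7.70 and 7.78 in WT Treg cells (difference -0.083 ± 0.079, 95% interval -0.260 to 0.093, adjusted p = 0.802). Eomes (TC0900001561.mm.1) was at background on all 6 Treg arrays, so no fold is given between the Treg groups.

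In Tconv cells none of the 9 factors was called between genotypes by limma, and 1 had an unadjusted p under 0.05, against 0.00303% of all probe sets called and 7.09% at an unadjusted p under 0.05. That factor was Eomes, which read 5.52 and 5.34 in Il2ramut/mut Tconv and 5.78 and 5.88 in WT Tconv cells. The groups did not overlap, and every Tconv array was above its background level. The difference was -0.40 ± 0.12 (95% interval -0.658 to -0.134, adjusted p = 0.541). The NK and innate lymphoid markers, a list that includes Eomes itself, had a mean log2 signal of 4.96 to 5.05 in Il2ramut/mut and 4.999 to 5.16 in WT Tconv arrays. Of its 8 genes 6 were at background on both Il2ramut/mut Tconv arrays and 4 on both WT Tconv arrays, and Ncr1, the NK cell receptor NKp46, was among them in both groups. The remaining factors differed between -0.26 (Bcl6) and 0.11 (Gata3), with adjusted p from 0.882 to 0.999. The test of the interaction called 0 of the 9 factors by limma, against 0.00152% of all probe sets, and 3 had an unadjusted p under 0.05 (Gata3, Tbx21 and Eomes), against 6.52%.

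Between Treg and Tconv cells about as many factors passed the test as did not. Gata3, Rora and Tbx21 were higher and Eomes lower in Treg cells of both genotypes, while Bcl6, Runx1, Runx3 and Zbtb7b passed in neither. Leaving out Foxp3, 4 of 8 factors were called in Il2ramut/mut mice, against 11.3% of all probe sets (5.43% higher and 5.91% lower in Treg cells), and 4 of 8 in WT mice, against 7.89% (4.37% higher and 3.52% lower). The factors were chosen with earlier results of these data known, and all of them are named genes, whereas 33142 of the probe sets named no gene. Among probe sets naming a gene alone (31292 naming 1 gene and 1522 several), limma called 5054 in Il2ramut/mut and 3890 in WT mice. The median of all probe sets was -0.080 in Il2ramut/mut and -0.076 in WT mice in this comparison.

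**Figure D3:**
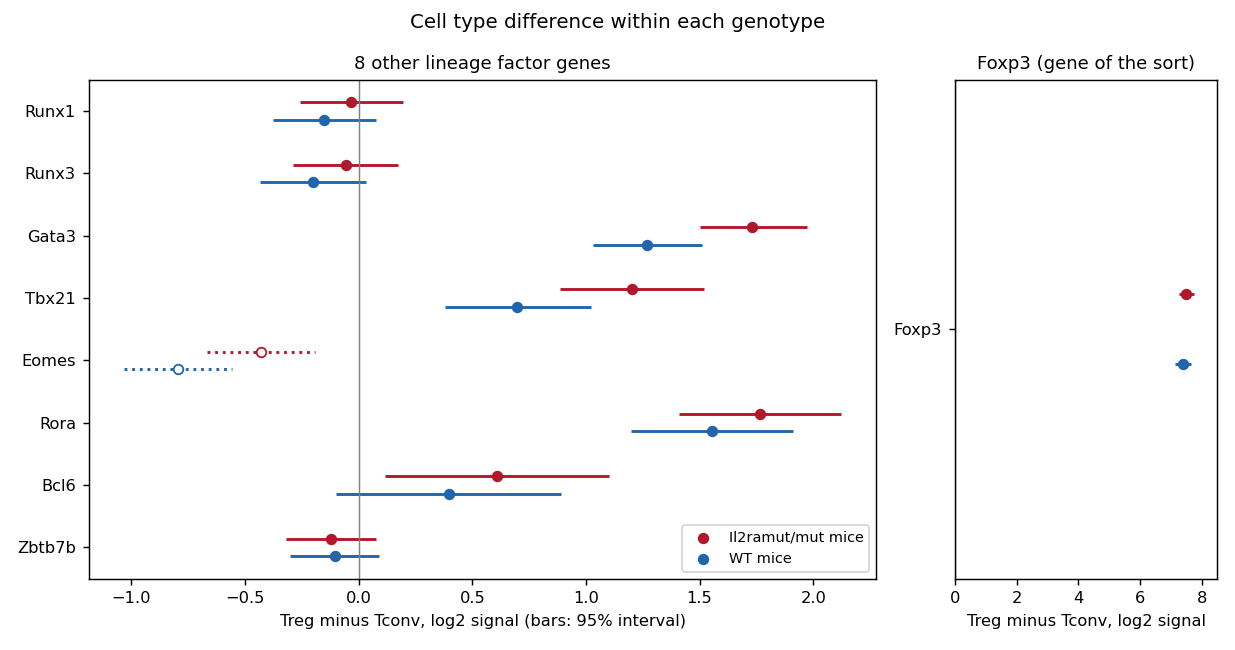
Difference in log2 signal between Treg and Tconv cells (horizontal axes) within Il2ramut/mut mice (red) and WT mice (blue), with 95% intervals of the limma fit. Open points with dotted bars mark Eomes, whose Treg groups lie at background. Gata3, Rora and Tbx21 lie to the right of 0 and Eomes to the left in both genotypes, and Foxp3, the gene of the sort, has its own panel with differences of 7.50 and 7.40.

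Gata3 was 1.73 ± 0.11 higher in Treg than in Tconv cells of Il2ramut/mut mice (3.32-fold, adjusted p = 3.9e-06) and 1.27 ± 0.11 higher in those of WT mice (2.41-fold, adjusted p = 4.15e-05). Its levels ordered the 4 groups as Il2ramut/mut Treg, WT Treg, Il2ramut/mut Tconv and WT Tconv, and only the last neighbours in that order had overlapping arrays. Tbx21 was 1.20 ± 0.14 higher in Treg cells of Il2ramut/mut mice (2.30-fold, adjusted p = 0.00041) and 0.70 ± 0.14 higher in those of WT mice (1.62-fold, adjusted p = 0.0143). The second of these rested on few arrays: without WT Tconv replicate 1, the lowest array, it was 0.52 (adjusted p = 0.112).

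Eomes read 5.12, 4.95 and 4.95 on Il2ramut/mut Treg arrays and 5.15, 4.94 and 5.01 on WT Treg arrays, all at or below background. Eomes was called lower in Treg than in Tconv cells of Il2ramut/mut mice (-0.43, adjusted p = 0.0288) and of WT mice (-0.80, adjusted p = 0.00117). These tests used the signals as given, with Treg values below background. Measured against the background level, Eomes was at least 1.10-fold lower in Treg cells of Il2ramut/mut mice and at least 1.61-fold lower in those of WT mice. These bounds set the Tconv mean against, for each Treg array, the higher of its signal and its background. The bounds themselves were not tested. In Il2ramut/mut mice the call was lost without Tconv replicate 1 (adjusted p = 0.187), Treg replicate 2 (0.0891) or Treg replicate 3 (0.0797).

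Rora read 6.34 and 6.65 in Il2ramut/mut Tconv and 6.35 and 6.83 in WT Tconv cells, below all 6 Treg arrays. Treg cells were 1.77 ± 0.16 higher in Il2ramut/mut mice (3.40-fold, adjusted p = 6.13e-05) and 1.56 ± 0.16 higher in WT mice (2.94-fold, adjusted p = 0.000183). The array carries 2 further probe sets annotated to Rora that have no place on a chromosome in its naming. The first, TSUnmapped00000043.mm.1, read 10.90, 10.81 and 11.12 in Il2ramut/mut Treg, 10.92, 10.31 and 10.55 in WT Treg, 5.46 and 6.24 in Il2ramut/mut Tconv, and 6.75 and 6.39 in WT Tconv cells. By this probe set the Treg cells were 34.2-fold higher than Tconv cells in Il2ramut/mut mice (5.10 ± 0.24, adjusted p = 7.64e-07) and 16.2-fold higher in WT mice (4.02 ± 0.24, adjusted p = 4.58e-06). It gave the same direction as the placed probe set with a far larger size, and the sources used here do not state which transcripts it reads. The second, TSUnmapped00000044.mm.1, was at background on all 10 arrays. Neither showed a called genotype difference, although the brighter one did not overlap between the genotypes in Tconv cells (-0.72 ± 0.27, adjusted p = 0.635).

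**Figure D4:**
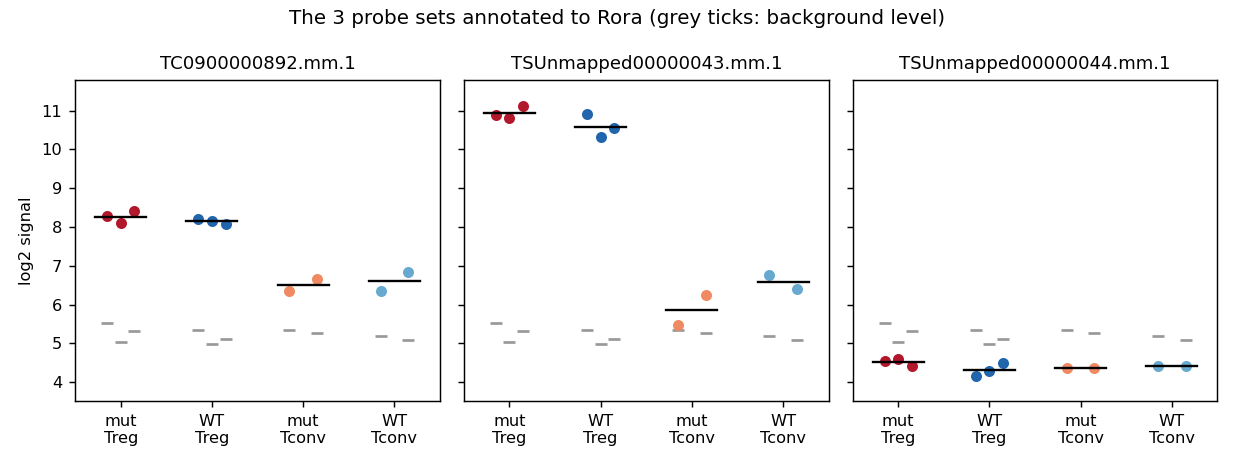
Log2 signal (shared vertical axis) of the 3 probe sets annotated to Rora on the 10 arrays, with group means (black lines) and background levels (grey ticks). The placed probe set and the first unplaced one are higher on all 6 Treg arrays than on all 4 Tconv arrays, by 1.77 and 5.10 in Il2ramut/mut mice, and the second unplaced one lies below background on every array.

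Bcl6 read 6.50 and 6.76 in Il2ramut/mut Tconv and 7.18 and 6.60 in WT Tconv cells. Treg cells were 0.61 ± 0.22 higher in Il2ramut/mut mice, where the arrays did not overlap (adjusted p = 0.121), and 0.40 ± 0.22 higher in WT mice, where they did (adjusted p = 0.362). Neither was called, and the 95% intervals were wide, at 0.115 to 1.10 in Il2ramut/mut and -0.098 to 0.889 in WT mice. Zbtb7b read 7.82 and 7.73 in Il2ramut/mut Tconv and 7.90 and 7.78 in WT Tconv cells, with Treg minus Tconv differences of -0.12 (95% interval -0.318 to 0.076) and -0.11 (-0.303 to 0.091).

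The genes whose signal followed each factor most closely over the 10 arrays were found among 16626 probe sets that name 1 gene and lie above background in at least 1 group. The values are Pearson's r and describe these arrays, which fall into Treg and Tconv arrays and so share that contrast. Foxp3 was followed by Il2ra and Il2rb, the alpha and beta chains of the IL-2 receptor, and by the integrin Itgb8 (r = 0.999 each), and 820 probe sets had an r over 0.95 with it. Tconv cells were gated to lack CD25, the product of Il2ra, so the likeness of Il2ra to Foxp3 was fixed in part by the sort. Gata3 was followed by Prdm1, which encodes the repressor BLIMP-1 (0.998), the phosphatase gene Ubash3b (0.997) and the mannosidase gene Man2b2 (0.997). Rora was followed by Farp1 (0.996), Etv6 (0.995) and Rnf149 (0.990), Tbx21 by Ccdc117 (0.985), Ccdc38 (0.983) and Gm6091 (0.982), and Eomes by Cdk5rap3 (0.981), Gss (0.977) and Pnpt1 (0.971). For the other factors the closest r were lower: Zbtb7b was followed by Nab1 (0.964), Apbb3 (0.957) and Rbmxl1 (0.953), Bcl6 by Dbnl (0.957), Usp9x (0.949) and Med15 (0.941), Runx3 by Gm13294 (0.932), Ccdc14 (0.909) and Pnpla7 (0.905), and Runx1 by Gm12359 (0.895), U2surp (0.886) and Sncb (0.879). Probe sets with an r over 0.95 numbered 595 for Rora, 512 for Gata3, 91 for Tbx21, 20 for Eomes, 3 for Zbtb7b and 1 for Bcl6. Runx1 and Runx3 had none. Eomes lay at background on every Treg array, so its r rests on the Tconv arrays set against that floor.

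Partners and targets of the factors were read from 7 lists, in which 94 of 103 distinct genes were measured. The lists were chosen with earlier results of these data known, so their shares of calls are descriptive. Of the 65956 probe sets 33142 named no gene, whereas every list gene was named. In a fit of probe sets naming a gene alone (31292 naming 1 gene and 1522 several), limma called 310 between the Treg groups. Between Il2ramut/mut and WT Treg cells, 6 of the 94 were called higher and 1 lower, against 0.171% and 0.202% of all probe sets, with a median difference of 0.00034. None of 22 partners and regulators of Foxp3 was called by limma, and 4 had an unadjusted p under 0.05. The lowest p there was that of the chromatin organizer Satb1, with means of 11.11 in Il2ramut/mut and 11.83 in WT Treg cells (-0.72 ± 0.16, adjusted p = 0.124), which also had the lowest p of the 13 CD4 or CD8 lineage genes, of which 0 were called and 4 had an unadjusted p under 0.05. The RUNX complex had 0 of 6 called and 1 at an unadjusted p under 0.05, the corepressor gene Tle3 (-0.38 ± 0.098, adjusted p = 0.203).

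Among 14 Th1 genes, which T-bet controls in part, 0 were called and 1 had an unadjusted p under 0.05, the chemokine receptor gene Cxcr6 (0.44 ± 0.16, adjusted p = 0.401). Median differences of the lists lay on both sides of 0: 0.18 for Th1 genes (13 of 14 above 0, of which Ccl3 and Ccl4 were at background in both groups), 0.10 for Th2 genes (8 of 13), 0.0088 for Foxp3 partners and regulators (11 of 22), -0.029 for the RUNX complex (2 of 6), -0.071 for Th17 genes (5 of 14), -0.20 for Tfh genes (5 of 15) and -0.25 for CD4 or CD8 lineage genes (4 of 13). Of 13 Th2 genes, the field of GATA3, 2 were higher: Il17rb, a subunit of the IL-25 receptor, averaged 7.87 in Il2ramut/mut and 6.28 in WT Treg cells (1.59 ± 0.24, adjusted p = 0.0301), and the eotaxin receptor gene Ccr3 was at least 1.98-fold higher, since it was at background in WT Treg cells (adjusted p = 0.0462). The cytokine genes of that fate, Il4, Il5 and Il13, named after their values were seen, lay at background on all 10 arrays. Of 14 Th17 genes 3 were higher. They were Ahr, the aryl hydrocarbon receptor (1.05 ± 0.15, adjusted p = 0.0243), the factor Maf (0.72 ± 0.11, adjusted p = 0.0355) and the membrane protein gene Tmem176b (0.80 ± 0.13, adjusted p = 0.0448), all of which are also used outside Th17 cells. Of 15 Tfh genes 1 was higher, Prdm1, whose product BLIMP-1 represses Bcl6 (0.87 ± 0.11, adjusted p = 0.016), and 1 was lower, the inhibitory receptor gene Btla (-0.75 ± 0.097, adjusted p = 0.0152). In Tconv cells and in the interaction, limma called 0 of the 94 genes, with 9 and 16 at an unadjusted p under 0.05. Over all probe sets, 0.00303% and 0.00152% were called and 7.09% and 6.52% had an unadjusted p under 0.05.

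**Figure D5:**
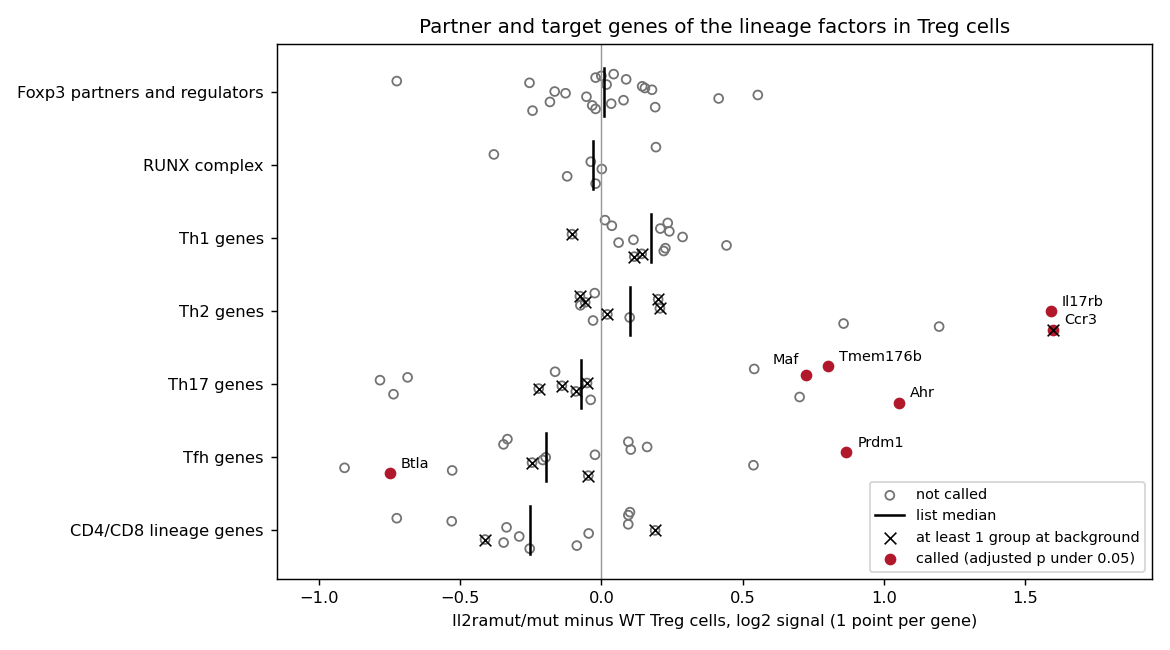
Difference in log2 signal between Il2ramut/mut and WT Treg cells (horizontal axis) for every measured gene of 7 lists, with 1 point per gene. Filled red points are called by limma, open grey points are not, crosses mark genes with at least 1 group at background, and black lines are list medians. The 7 called genes lie in the Th2, Th17 and Tfh lists, 6 to the right of 0 and Btla to the left.

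Between Treg and Tconv cells, 44 of the 94 list genes were called higher and 15 lower in Treg cells of Il2ramut/mut mice, and 36 and 13 in those of WT mice, against 5.43% and 5.91% of all probe sets in Il2ramut/mut mice and 4.37% and 3.52% in WT mice. In the fit of probe sets naming a gene alone, limma called 5054 in Il2ramut/mut and 3890 in WT mice. The genes with the lowest p of each list are given as Treg minus Tconv differences on the log2 scale, in Il2ramut/mut and then in WT mice. A fold given as "at least" is a lower bound on the linear scale and cannot be set against a log2 difference. Of 22 partners and regulators of Foxp3, 10 were higher and 4 lower in Il2ramut/mut mice, and 7 and 5 in WT mice. The Ikaros family genes Ikzf2 (8.60 and 7.94) and Ikzf4 (4.31 and 4.03), the factor Irf4 (4.22 and 3.92) and the NF-kB subunit gene Rel (1.10 and 1.13) were higher, and Satb1 (-3.37 and -2.66) and the repressor gene Bach2 (-1.58 and -1.39) were lower. In the RUNX complex the corepressor gene Tle4 was lower in both (-1.004 and -1.17), and Tle1 in Il2ramut/mut mice (-0.40).

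Th1 genes had 8 of 14 higher and 0 lower in each genotype. They included Il2rb (7.42 and 7.64), the IL-12 receptor gene Il12rb1 (2.26 and 2.03), the IL-18 receptor gene Il18r1 (2.14 and 1.81), the granule gene Nkg7 (3.94 and 3.61) and Cxcr3 (1.32 and 0.92). Il18rap was at least 5.20-fold higher in Il2ramut/mut mice (a bound) and 2.26 higher on the log2 scale in WT mice. Th2 genes had 7 higher and 1 lower of 13 in Il2ramut/mut mice, and 4 and 1 in WT mice. The chemokine receptor gene Ccr4 was at background in Tconv cells and at least 142-fold and 70.1-fold higher in Treg cells, Ccr8 (4.13 and 3.77) and the phosphatase gene Dusp4 (3.06 and 3.04) were higher, and Il4ra was lower (-0.83 and -0.59). Il17rb (2.41) and Ccr3 (at least 1.78-fold) were called in Il2ramut/mut mice, and the counts include Il4 in Il2ramut/mut mice and Nfil3 in WT mice, each called with both groups at background.

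Th17 genes had 8 higher and 1 lower of 14 in Il2ramut/mut mice, and 7 and 1 in WT mice, with Maf (6.92 and 5.83), Ahr (4.78 and 3.80), Batf (2.14 and 2.14) and Tmem176b (1.86 and 1.04) higher in both. The chemokine receptor gene Ccr6 was at least 12.7-fold higher in Il2ramut/mut mice (a bound) and 4.78 higher on the log2 scale in WT mice. On that scale Il23r was 3.32 higher in WT mice, and Il6ra was lower in Il2ramut/mut mice (-1.22). Tfh genes had 10 higher and 2 lower of 15 in Il2ramut/mut mice, and 10 and 1 in WT mice, led by Icos (4.03 and 3.41), Pdcd1 (4.12 and 4.42), Cd200 (2.81 and 2.95), Prdm1 (2.71 and 1.96), Sh2d1a (1.85 and 1.64) and Cxcr5 (3.39 and 3.62). Of 13 CD4 or CD8 lineage genes 2 were higher and 6 lower in Il2ramut/mut mice, and 1 and 5 in WT mice. Besides Satb1, the costimulatory ligand gene Cd40lg (-2.98 and -2.65), the perforin gene Prf1 (-2.80 and -1.95), the adhesion gene Crtam (-1.50 and -1.25) and Cd4 (-0.79 and -0.80) were lower, and the nuclear factor gene Tox (1.09 and 1.12) was higher. The adjusted p of the list genes named for this comparison ran up to 0.029. At most 6 genes a list and genotype were named, so a gene given for a single genotype is not thereby particular to it. In the interaction limma called 0 of the 94 list genes.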

How the data were processed

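Per the labels, total RNA of sorted cells was amplified with the GeneChip WT Pico kit, labelled with biotin and hybridized to 1-colour Affymetrix Mouse Transcriptome Arrays. The submitters' processing notes name Affymetrix Expression Console 1.4.1.46, with which the authors made the values, and Transcriptome Analysis Console 3.1.0.5, which they used for comparisons. The deposited values are log2 signals, 1 for each probe set on each array. No source states the base, which was read from the software and the highest value of 19.86. The sources used here give neither the summarisation method nor the array's genome build. The table had 72688 probe sets. The tests used 65956 of them, without 6732 controls.

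In the platform annotation, with older symbols updated through a RefSeq table (32812 named probe sets had an entry), 31292 probe sets named 1 gene, 1522 several and 33142 none. Each of the 9 factors was read from its placed transcript probe set with the highest mean, also where it lists another gene, and all 9 were named in every comparison. From 7 lists, genes called were named, at most 6 a list and comparison by lowest p, and otherwise the gene with the lowest p. For likeness, the 3 genes with the highest r were named. The factors, lists and rules were chosen with earlier results of these data known.

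Tests used limma 3.58.1 under R 4.3.3 (lmFit, contrasts.fit and default eBayes) on all 10 arrays, with a mean per group, 6 residual and 3.54 prior degrees of freedom, and Benjamini-Hochberg adjustment over all tested probe sets. Calls were made at an adjusted p under 0.05. Where a whole group lay at or below background, a fold was given as a bound, and none where both did. The p-values are those of the signals as given, and the bounds were not tested. The fit was tested on simulated data. Alternatives were another normalization, a filter on dim probe sets, subsets of arrays and of probe sets, replicate blocks, other eBayes settings, the methods' t-test (unpaired, equal variance), the study's criterion (a fold of at least 1.5 and p of at most 0.01) and leaving out each array. Precision is limited by the few arrays of each group, and no batch is named in the sources used here.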

Additional observations from a re-analysis of the deposited data

How the results depend on the processing

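The count of 1 factor called between Il2ramut/mut and WT Treg cells, Gata3, was 0 whichever of the 6 Treg arrays was left out (0 to 0). It was also 0 with the Treg arrays alone (Gata3 adjusted p = 0.0806), trend and robust eBayes settings (0.0836) or the methods' t-test after adjustment (0.33). The study's criterion, applied here to the unadjusted p of that t-test, also gave 0, and Gata3 missed its fold minimum. The paper itself names Gata3 among the transcription factor genes that differed between these Treg cells. The reason for this departure was not tested. Gata3 was called with quantile normalization (difference 0.62, adjusted p = 0.0441), the filter on dim probe sets (0.0359) and probe sets naming a gene alone (0.0174). By the methods' t-test after adjustment, the counts of 5 factors called between Treg and Tconv cells were 3 in Il2ramut/mut and 1 in WT mice. These counts include Foxp3, whose difference was fixed by the sort. Besides Foxp3, Gata3 (0.0262) and Tbx21 (0.0389) were called in Il2ramut/mut mice. In WT mice the only call was Foxp3, and Gata3 (0.0765), Eomes (0.101), Rora (0.107) and Tbx21 (0.286) were not called. The call of Eomes in Il2ramut/mut mice was lost with quantile normalization (0.0579) and with the arrays compared alone (0.07), and that of Tbx21 in WT mice with the arrays compared alone (0.0648). Over all probe sets, limma called 246 between the Treg groups, against 132 with the Treg arrays alone, 0 by the methods' t-test after adjustment and 386 by the study's criterion. Without replicate 1, 2 or 3 of the Il2ramut/mut Treg arrays the count was 104, 166 or 68, and without that of the WT Treg arrays it was 154, 38 or 59. Fewer arrays also mean fewer degrees of freedom.

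Deviations of same-numbered arrays from their group means had r from -0.143 to 0.124 (13 pairs, 1 of them over 0.1). The replicate numbers were not taken to pair the samples. In a group of 2 arrays the deviations mirror each other, so both Tconv pairs gave the same r of -0.143. The 13 values are therefore not independent and are weak grounds for leaving a pairing out. With the number as a replicate block, the count of factors called between the Treg groups was 0 (Gata3 adjusted p = 0.126) and that of all probe sets 127, and the calls of Eomes in Il2ramut/mut mice (0.0588) and Tbx21 in WT mice (0.0571) were lost. With genotype and number as a random block, Gata3 was called (0.0469). With the numbers of the Il2ramut/mut Tconv arrays crossed, chosen after seeing that same-numbered Tconv arrays correlated at -0.143, 0 factors were called between the Tconv groups.

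Some differences that were not called changed sign in some settings. With quantile normalization these were Foxp3 in Tconv cells (0.0048), the interaction of Zbtb7b (0.022) and Treg against Tconv cells for Runx1 in Il2ramut/mut mice (0.0072). With 1 array left out, the genotype difference in Treg cells ran from -0.085 to 0.032 for Eomes, -0.23 to 0.11 for Bcl6 and -0.037 to 0.049 for Runx3. In Tconv cells it ran from -0.13 to 0.12 for Foxp3, -0.14 to 0.21 for Tbx21, -0.55 to 0.031 for Bcl6, -0.34 to 0.14 for Rora and -0.18 to 0.080 for Runx1. The interaction ran from -0.077 to 0.50 for Bcl6, -0.029 to 0.45 for Rora, -0.074 to 0.043 for Zbtb7b, -0.022 to 0.22 for Foxp3 and -0.012 to 0.25 for Runx1. Treg minus Tconv in Il2ramut/mut mice ran from -0.16 to 0.098 for Runx1 and -0.18 to 0.065 for Runx3. The cause of these changes was not tested. Averaging all placed probe sets of a gene gave no other value, since each factor has 1. The 2 Tconv arrays a group limit what could be called there.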
